A study of Mus musculus with 8 samples.

Results

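The 10 genes of polyamine metabolism described here were measured in mouse tibialis anterior, a shin muscle made mostly of fast fibres, and are 10 of the 24341 genes listed in each library. They were picked by name, as enzymes and regulators of polyamine synthesis, acetylation and oxidation, because the acetyltransferase gene Sat2 was already known to be higher in the knockout. The genotype difference therefore chose them and is given here as a description. RNA of whole muscle was sequenced, 1 library per mouse. All 8 mice were 12 weeks old, were fed chow, carried floxed Carm1 and are described as male. The 4 controls (Carm1 skm+/+, HSAcre 0/0) had no Cre, and the 4 knockouts (Carm1 skm-/-, HSAcre Tg/0) carried the Cre transgene HSAcre, which by its name is driven by the human skeletal actin promoter of muscle fibres. Presence of Cre and loss of Carm1, an arginine methyltransferase, therefore cannot be told apart, and cells other than muscle fibres keep the gene. Levels are FPKM, fragments normalised to transcript length and library size, here divided by 1 scaling factor per library ("scaled FPKM").

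Polyamines are small positively charged molecules that bind nucleic acids. Ornithine decarboxylase (Odc1) makes putrescine from ornithine, S-adenosylmethionine decarboxylase (Amd1) supplies the aminopropyl donor, and spermidine synthase (Srm) and spermine synthase (Sms) build spermidine and then spermine. Spermine oxidase (Smox) turns spermine back into spermidine, and Sat1 encodes the spermidine/spermine acetyltransferase that marks polyamines for oxidation or export. Antizymes (Oaz1, Oaz2) bind ornithine decarboxylase and send it to the proteasome, and the antizyme inhibitor Azin1, an inactive relative of the decarboxylase, competes for them. In muscle, Odc1, Amd1 and Smox are known as genes that respond to androgens.

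Of the 8 libraries, 3 went against their label. Control 1, knockout 2 and knockout 4 held between 19.6 and 22.9 FPKM of Xist, the RNA of the inactive X chromosome, while the other 5 held at most 0.0662. The Y-linked gene Eif2s3y was at or below 0.112 FPKM in these 3 libraries and between 42.3 and 58.1 in the other 5. Results are therefore also given by presence of Xist, a split of the libraries made from the data and not by the study. Carm1 itself stood at 26.5, 36.0, 24.7 and 31.0 FPKM in controls 1 to 4 and at 18.4, 13.5, 16.5 and 14.7 FPKM in knockouts 1 to 4. The groups did not overlap, with a difference of -0.94 in mean log2(scaled FPKM + 1) (exact permutation p = 0.0286, 2-sided, the smallest that 4 against 4 allows). Summed FPKM lay between 604428 and 681042 per library, and relative depth, read from the spacing of low values, between 81.0% and 100% of the deepest library. Absolute depth is not known. Mylpf, the fast regulatory light chain gene, was abundant in every library, at 15629 FPKM or more.

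In controls the 10 genes covered a wide range of levels per length. The antizyme genes were the most abundant with Smox, at 98.7 ± 16.9 scaled FPKM for Oaz1, 77.6 ± 50.0 for Smox and 77.4 ± 3.01 for Oaz2 (mean ± SD, n = 4). Amd1 with Amd2 followed at 60.7 ± 34.6, Odc1 at 34.7 ± 20.5, Sat1 at 23.8 ± 5.86 and Sms at 19.6 ± 2.71. Srm and Azin1 stood at 9.38 ± 1.3 and 9.09 ± 0.881, and Sat2 was lowest at 5.08 ± 0.257. Neighbours in this order overlapped between control libraries except at the steps from Sms to Srm and from Azin1 to Sat2. The genes differed widely in how much they varied: across all 8 libraries the highest value was 10.5 times the lowest for Smox, 7.98 times for Amd1 with Amd2 and 5.43 times for Odc1, against 1.33 times for Azin1 and 1.44 times for Srm. The widest variation thus lay at both decarboxylases and the spermine oxidase.

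Upstream sequences are shown for 5 genes. Smox, Oaz1 and Sms were lower in the libraries with Xist, and Sat2 chose the set. Amd1 was too low to test alone, and its sum with the row Amd2, which is mostly Amd2, was lower. RefSeq windows (GRCm38.p6, the assembly of mm10) were found for 8 of the 10 genes. Each line gives, 5′ to 3′, the longest stretch of the 250 bases before the RefSeq start that lies outside the exons of these genes in GENCODE M21. Capitals mark GC boxes (GGGCGG) and the boxes named CCAAT as well as the Myc-type E-box (CACGTG), on either strand. Sms has 2 windows, and the one at its outermost start is shown. The Smox stretch lies inside the Smox gene of GENCODE M21, which starts at 131491496, and is upstream of the RefSeq start only.
Amd1 (chr10:40302189-40302438, minus strand): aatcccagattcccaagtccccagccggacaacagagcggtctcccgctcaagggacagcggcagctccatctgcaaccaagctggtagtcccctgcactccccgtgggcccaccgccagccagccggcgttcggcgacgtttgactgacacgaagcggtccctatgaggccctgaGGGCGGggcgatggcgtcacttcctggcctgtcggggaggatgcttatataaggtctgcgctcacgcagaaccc
Smox (chr2:131491654-131491763, plus strand): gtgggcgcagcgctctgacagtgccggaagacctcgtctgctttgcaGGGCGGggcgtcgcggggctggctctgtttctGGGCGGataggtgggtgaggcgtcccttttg
Oaz1 (chr10:80826406-80826655, plus strand): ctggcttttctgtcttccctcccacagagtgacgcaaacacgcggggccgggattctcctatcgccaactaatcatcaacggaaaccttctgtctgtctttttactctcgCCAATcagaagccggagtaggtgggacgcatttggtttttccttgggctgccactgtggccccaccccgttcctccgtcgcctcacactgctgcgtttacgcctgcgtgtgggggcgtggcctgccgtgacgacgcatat
Sms (chrX:157492288-157492537, minus strand): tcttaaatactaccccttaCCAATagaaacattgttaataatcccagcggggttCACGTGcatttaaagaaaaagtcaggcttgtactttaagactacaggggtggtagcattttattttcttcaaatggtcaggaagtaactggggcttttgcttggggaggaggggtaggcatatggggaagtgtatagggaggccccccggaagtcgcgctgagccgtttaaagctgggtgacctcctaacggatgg
Sat2 (chr11:69621802-69622023, plus strand): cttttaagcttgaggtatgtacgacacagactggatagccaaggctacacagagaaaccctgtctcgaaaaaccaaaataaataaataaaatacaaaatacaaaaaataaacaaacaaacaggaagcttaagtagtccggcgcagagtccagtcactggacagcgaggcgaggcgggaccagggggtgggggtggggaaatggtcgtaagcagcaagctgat
In the whole 250 bases Smox had 6 GC boxes and Amd1 had 1, and Oaz1 and Sat2 had 1 CCAAT box each, that of Sat2 inside an exon stretch that is not printed. The Sms window shown had 1 CCAAT box and 1 E-box, and its other window had 4 GC boxes, counting matches that overlap. Among the genes whose sequence is not printed, Odc1 had 4 GC boxes, Oaz2 had 3 and Sat1 had 2. Of 32851 RefSeq windows of this length, 32.7% held a GC box, 33.8% a CCAAT box and 6.02% the E-box. The steroid receptor half-site AGAACA, in 16.1% of windows, stood once each in Oaz2 and Sat1 and in no window of the other 6 genes. The exact letters TATAAA of a TATA box, in 12.4% of windows, were in none of the windows of the 8 genes. Near matches, such as tatataa close to the end of the printed Amd1 stretch, were not counted. No match of one motif overlapped that of another in the printed stretches. These are letter matches in short windows and say nothing of which factor binds.

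Sat2 encodes a relative of the Sat1 enzyme that is known to prefer thialysine to polyamines as its substrate. Its level separated the genotypes, with all 4 knockouts above all 4 controls. Groups without overlap, in either direction, were found for 8.31% of all genes tested. Controls 1 to 4 held 5.37, 4.99, 5.19 and 4.77 scaled FPKM and knockouts 1 to 4 held 12.0, 9.29, 8.99 and 7.72. The controls lay close together and the knockouts spread more widely, with knockout 1 the highest. The knockout mean was 187% of the control mean, 9.50 ± 1.79 against 5.08 ± 0.257 (SD, n = 4 each), and the difference in log2(scaled FPKM + 1) was 0.77 (SE 0.12). Since these values chose the genes, no test is attached. With presence of Xist as a covariate the difference was 0.80 (SE 0.12), in the 5 libraries without Xist alone it was 0.93, and leaving out any 1 library gave between 0.67 and 0.86. Sat2 lies on chromosome 11 from 69622024 to 69623870 (mm10, plus strand) and overlaps no other gene in GENCODE M21. Its counterpart Sat1, on the X chromosome from 155213132 to 155216449, did not share the pattern: controls held 17.5, 22.6, 31.6 and 23.5 scaled FPKM and knockouts 22.3, 26.2, 23.9 and 21.4. The Sat1 groups overlapped, with a log2 difference of 0.01 (SE 0.16, 95% interval -0.36 to 0.37).

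**Figure D1:**
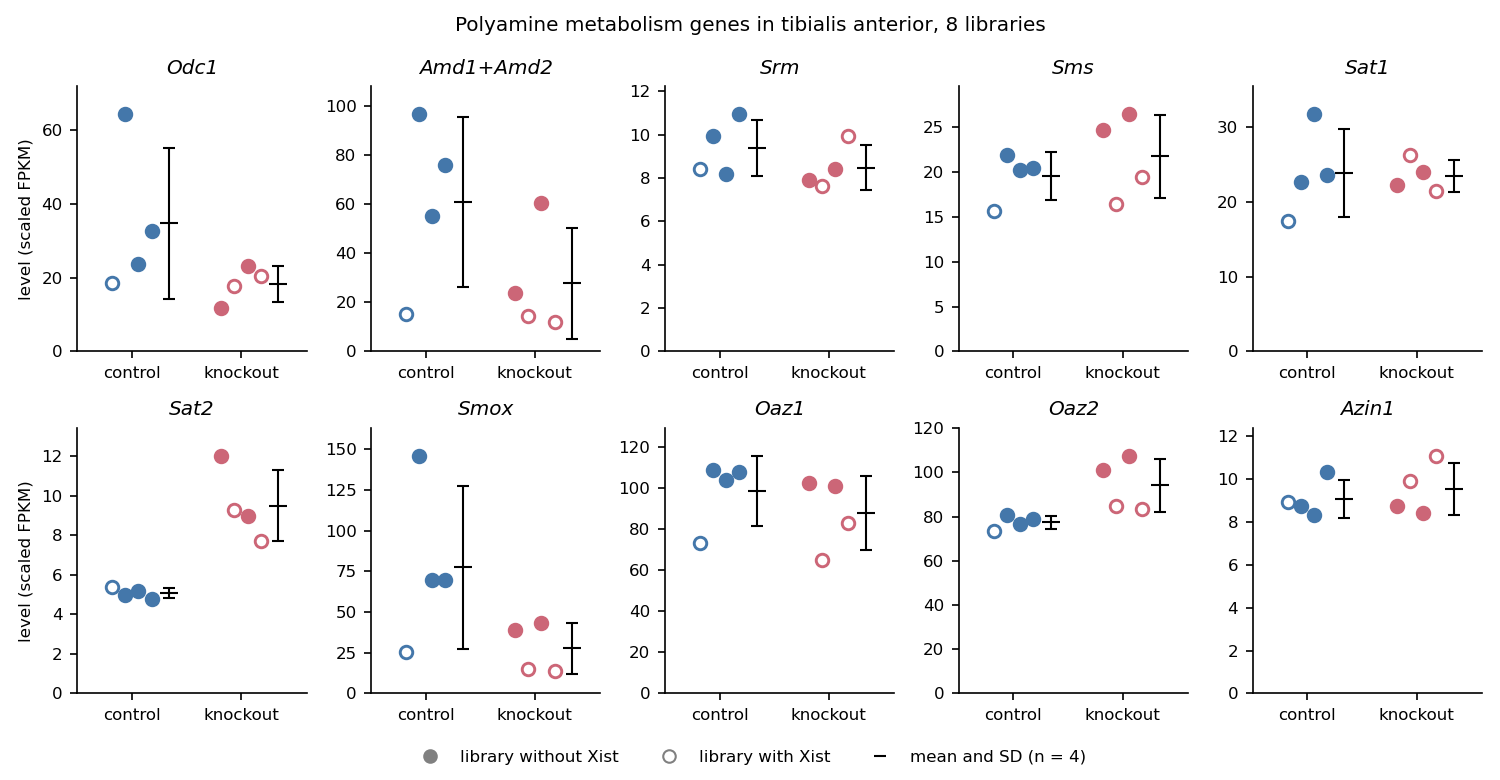
Level of each gene in scaled FPKM (vertical axes, from 0) in the 4 control (blue) and 4 knockout (red) libraries. Open circles are the 3 libraries with Xist, filled circles the 5 without, and bars give mean and SD (n = 4). Sat2 and Oaz2 separate the genotypes, while open circles lie lowest for Amd1 with Amd2, Smox, Oaz1 and Sms.

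Across all genes, limma called 40 of 11096 at an adjusted p under 0.05 between the genotypes, 0.36%, with 22 higher (0.198%) and 18 lower (0.162%) in the knockout. Without scaling between libraries, which moves the median of all genes to 0.07, the split was 36 higher and 13 lower. Of the 10 genes 9 were tested, as Amd1 alone was too low. Sat2 chose the set, so no call is given for it. None of the other 8 passed (smallest adjusted p = 0.284, limma), and 2 of them, Oaz2 and Smox, had an unadjusted p under 0.05 in the same fit, as did 13.1% of all genes. Marker genes leaned 1 way within most lists in the same comparison, without a call. All 5 tested fast-fibre genes were lower, 5 of 6 slow-fibre genes higher and all 6 macrophage genes higher. All 5 fibro-adipogenic, all 5 endothelial and the 2 tested adipocyte genes were lower, and the 3 tested red blood cell genes higher. These are counts of signs, and some differences were far smaller than their SE. Examples are Alas2 at 0.0006 (SE 0.27), Hba-a1 at 0.028 (SE 0.30) and Lum at -0.028 (SE 0.30). Of the 32 markers tested 6 had an unadjusted p under 0.05 in limma, none of them macrophage or endothelial, against 13.1% of all genes. Their part in the differences of the polyamine genes was not tested. The 9 tested genes had a median log2 difference of 0.01, with 5 higher and 4 lower, against a median of -0.0021 over all genes.

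Of the synthesis genes, Odc1 stood at 18.5, 64.1, 23.6 and 32.5 scaled FPKM in controls 1 to 4 and at 11.8, 17.8, 23.2 and 20.5 in knockouts 1 to 4. Control 2 was far above all others and the groups overlapped. The knockout mean was 52.8% of the control mean, with a log2 difference of -0.77 (SE 0.36, 95% interval -1.58 to 0.04), which became -0.42 without control 2 and -1.0 without control 1. In the 5 libraries without Xist the difference was -1.10. There controls lay between 23.6 and 64.1 and knockouts at 11.8 and 23.2 without overlap, which held for 31.8% of all genes in that small comparison of 3 against 2.

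Srm, the spermidine synthase gene, was flat, with controls between 8.20 and 10.9 and knockouts between 7.62 and 9.93 scaled FPKM and a log2 difference of -0.13 (SE 0.11). Sms, the spermine synthase gene on the X chromosome, held 15.7, 21.9, 20.2 and 20.4 scaled FPKM in controls and 24.7, 16.4, 26.4 and 19.5 in knockouts. Its groups overlapped, at a log2 difference of 0.13 (SE 0.16), and 0.24 (SE 0.08, limma adjusted p = 0.146) with Xist as a covariate. Among libraries without Xist both knockouts were above all 3 controls, and 31.8% of all genes had no overlap in that comparison.

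Amd1, the S-adenosylmethionine decarboxylase gene, could not be read alone. The tables list Amd1 and Amd2 at the same place, chromosome 10 from 40287458 to 40302188, whereas GENCODE M21 puts Amd2 elsewhere on that chromosome, from 35708675 to 35711892. The row Amd1 held 5.93 and 8.21 FPKM in controls 3 and 4 and 2.67 in knockout 1, and at most 0.01 in the other 5 libraries. The row Amd2 held between 12.9 and 92.8 FPKM. Amd1 thus made up 11.9%, 10.5% and 11.0% of the sum in those 3 libraries and at most 0.0726% in the rest. None of those 3 libraries held Xist, but neither did control 2 and knockout 3, where the share was low. The sum of both rows, chosen after the values were seen, was used instead.

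The summed decarboxylase held 15.3, 96.5, 55.0 and 75.9 scaled FPKM in controls 1 to 4 and 23.7, 14.5, 60.6 and 12.1 in knockouts 1 to 4. The genotypes overlapped, with a log2 difference of -1.12 (SE 0.63, 95% interval -2.55 to 0.31, limma adjusted p = 0.493). It was -0.68 (SE 0.32) with Xist as a covariate, and -0.39 without knockouts 2 and 4, which hold Xist and are also the only libraries with 0 genes of status LOWDATA, against 5 to 10 in each other library.

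Smox, the spermine oxidase gene, held 25.4, 146, 69.6 and 69.7 scaled FPKM in controls 1 to 4 and 39.1, 14.8, 43.2 and 13.9 in knockouts 1 to 4. Control 1 lay among the knockouts, so the groups overlapped. The knockout mean was 35.8% of the control mean, 27.7 ± 15.6 against 77.6 ± 50.0 (SD, n = 4 each), and the log2 difference was -1.38 (SE 0.55, limma adjusted p = 0.33). With Xist as a covariate it was -0.98 (SE 0.24, adjusted p = 0.085, limma), and without knockouts 2 and 4 it was -0.65. In the libraries without Xist the 3 controls lay at 69.6 or more and both knockouts at 43.2 or less. Such a separation held for 31.8% of all genes there. Smox lies on chromosome 2 from 131491496 to 131525922 (mm10), but the tables give it a locus shared with 12 other genes, from 131127412 to 131604824.

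The antizyme genes differed from each other. Oaz2 was higher in every knockout than in every control: controls 1 to 4 held 73.6, 80.5, 76.5 and 78.9 scaled FPKM and knockouts 1 to 4 held 101, 84.6, 107 and 83.6. Knockouts 2 and 4 lay just above the controls, and knockouts 1 and 3 well above. Such a separation held for 8.31% of all genes tested. The log2 difference was 0.27 (SE 0.10, limma adjusted p = 0.284), and 0.33 (SE 0.07, limma adjusted p = 0.0581) with Xist as a covariate. Oaz1 held 73.5, 109, 104 and 108 scaled FPKM in controls and 103, 64.9, 101 and 82.9 in knockouts, overlapping, with a log2 difference of -0.17 (SE 0.18). A row named Oaz1-ps is listed at the same place as Oaz1, so its share of reads is uncertain. Azin1, the antizyme inhibitor, lay between 8.33 and 10.4 in controls and between 8.41 and 11.1 scaled FPKM in knockouts, with a log2 difference of 0.06 (SE 0.10).

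The comparison of libraries by presence of Xist, with genotype as a covariate, was not used to choose the genes, and there several of them differed. The split by Xist was itself made with earlier results of these data known. Smox, Sms and Oaz1 were lower in the 3 libraries with Xist by the limma test, as was the sum of Amd1 and Amd2. Of all 11096 genes tested 12.4% passed in that comparison, 5.03% as lower and 7.42% as higher. Of the 9 tested genes 3 passed, all lower, and 8 of 9 had a negative difference, with a median of -0.22 against -0.01 over all genes. Those that passed were also the only 3 of the 9 with no overlap between the 3 and the 5 libraries, which held for 20.7% of all genes. The split sets 1 control and 2 knockouts against 3 controls and 2 knockouts.

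Smox stood at 18 ± 6.38 scaled FPKM (SD, n = 3) in the libraries with Xist and 73.4 ± 42.8 (SD, n = 5) in those without. The log2 difference was -1.59 (SE 0.24, limma adjusted p = 0.0104). Within controls the library with Xist held 25.4 against 69.6 to 146, and within knockouts 13.9 and 14.8 against 39.1 and 43.2. The summed decarboxylase gave 14.0 ± 1.68 against 62.3 ± 26.9, a log2 difference of -1.77 (SE 0.33, limma adjusted p = 0.018). Its 3 values with Xist lay close together, whereas those without ranged from 23.7 to 96.5. Oaz1 gave 73.8 ± 9.03 against 105 ± 3.32, a log2 difference of -0.50 (SE 0.09, limma adjusted p = 0.0163), and Sms 17.2 ± 2.01 against 22.8 ± 2.73, a log2 difference of -0.45 (SE 0.08, limma adjusted p = 0.0151). For all 4 the library ranges were apart.

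Odc1 did not pass in this comparison, at 18.9 ± 1.42 scaled FPKM with Xist and 31.0 ± 19.9 without (log2 difference -0.30, SE 0.38, limma adjusted p = 0.638). Knockout 1, without Xist, had the lowest Odc1 of all 8 libraries, and control 2 had the highest Odc1, Smox and summed decarboxylase. Oaz2 stood at -0.22 (SE 0.07, limma adjusted p = 0.0837), Sat1 at -0.20, Sat2 at -0.11, Srm at -0.03 and Azin1 at 0.14. None of the 9 tested genes, nor the sum, had a genotype difference that depended on Xist in an interaction term (smallest adjusted p = 0.998, limma; 0 with an unadjusted p under 0.05, against 2.66% of all genes), which with 1 control holding Xist is a weak test.

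Several of these calls were lost when 1 library was left out. So were many over all genes, from 1381 to 84 without control 1 and to 195 without knockout 2. Without control 1, the only control with Xist, Smox stood at -1.46 (limma adjusted p = 0.0854), the summed decarboxylase at -1.46 (0.125), Oaz1 at -0.47 (0.11) and Sms at -0.49 (0.082), and none passed. Without knockout 2 the sum stood at -1.90 (limma adjusted p = 0.057), Oaz1 at -0.42 (0.062) and Sms at -0.38 (0.0587), while Smox passed. Oaz1 also missed without knockout 1, at -0.50 (limma adjusted p = 0.0505), and the sum without knockout 4, at -1.79 (0.0515). All stayed negative in these fits. Fibre-type genes moved with the same split: of 6 tested slow-fibre markers all 6 were higher with Xist and 2 passed, the light chain genes Myl2 (log2 difference 2.59) and Myl3 (2.48), with a summed level of all 7 listed of 221 to 474 against 78.4 to 160 scaled FPKM. Of 5 tested fast-fibre markers all 5 were lower and 2 passed, Actn3 (log2 difference -0.65) and Pvalb (-0.82). The summed level of these 5 was 46239 to 73399 scaled FPKM with Xist against 77337 to 109628 without, with no overlap. Acta1, Ckm and Tnnt3, also listed as fast-fibre markers, stand at 0 in at least 1 library and had a status other than OK in at least 1. They were left out of that sum, a choice made after the values were seen. With all 8 listed the sum was 73399 to 103426 with Xist and 78035 to 130065 without, which overlap. The part of fibre type in the differences of Smox, Amd1 with Amd2, Oaz1 and Sms was not tested, and fewer fibres of a type and less RNA per fibre cannot be told apart in whole muscle.

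**Figure D2:**
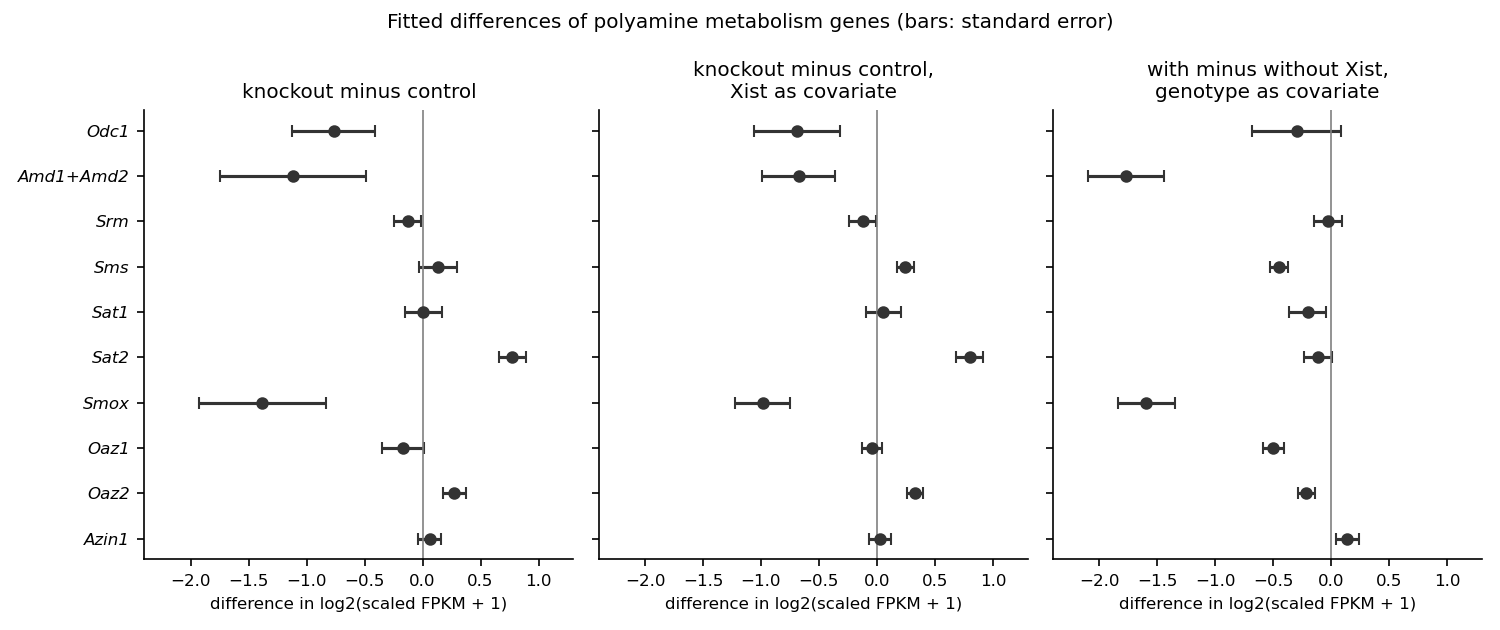
Fitted difference in log2(scaled FPKM + 1) for each gene (horizontal axes), with standard errors, for knockout minus control, the same with Xist as a covariate, and libraries with minus without Xist. Smox and Amd1 with Amd2 lie far to the left in the right panel, at -1.59 and -1.77, and Sat2 at 0.77 and 0.80 to the right in both genotype panels.

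The rest of the pathway was read from a list of 31 genes chosen by function, of which 22 could be tested. Between genotypes none of the 22 passed in limma, 2 had an unadjusted p under 0.05 where 13.1% of all genes did, 9 were higher and 13 lower, and the median log2 difference was -0.03 against -0.0021 over all genes. The 2 with the smallest p were Ahcy, which clears S-adenosylhomocysteine, at 3.83 ± 1.17 in controls and 5.93 ± 1.05 in knockouts (log2 difference 0.54, SE 0.17, limma adjusted p = 0.231), and Oat, the ornithine aminotransferase of mitochondria, at 150 ± 21.3 and 120 ± 15.2 scaled FPKM (log2 difference -0.32, SE 0.13, limma adjusted p = 0.344). Both miss the threshold, and a count of 2 of 22 is no more than the share of all genes. Eif5a, whose protein receives hypusine made from spermidine, stood at 257 ± 17.9 and 273 ± 31.8, and the polyamine oxidase gene Paox at 1.5 ± 0.0789 and 1.46 ± 0.191.

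By presence of Xist 6 of the 22 passed in limma, 4 lower and 2 higher, where 12.4% of all genes passed; 1 of the 4 is the row Amd2 already counted in the sum above. Mat2a, the enzyme that makes S-adenosylmethionine, fell with Xist, at 70.3 ± 4.65 scaled FPKM (SD, n = 3) against 109 ± 18.7 (SD, n = 5), a log2 difference of -0.58 (SE 0.13, limma adjusted p = 0.0319). Its regulatory subunit gene Mat2b was higher, at 67.4 ± 1.74 against 52.1 ± 3.6 (log2 difference 0.39, limma adjusted p = 0.0189). Library ranges did not overlap for either, which held for 20.7% of all genes. Adi1 and Enoph1, enzymes of the salvage of methylthioadenosine that polyamine synthesis releases, were lower, at 35.9 ± 1.04 against 48.0 ± 3.52 and at 5.42 ± 0.104 against 6.75 ± 0.0926 (limma adjusted p = 0.021 and 0.0272). All 5 salvage genes tested had negative differences, with a median of -0.27. Slc7a2, a transporter of cationic amino acids such as arginine and ornithine, was higher, at 13.3 ± 0.347 against 9.20 ± 1.74 (log2 difference 0.56, limma adjusted p = 0.0244). Without control 1 none of these 6 passed, with adjusted p-values between 0.0589 for Slc7a2 and 0.19 for Mat2a in limma. Over the 8 fits with 1 library left out Enoph1 passed in 2, Mat2a, Mat2b and Slc7a2 in 3 each, and Adi1 in 4, with no change of direction.

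**Figure D3:**
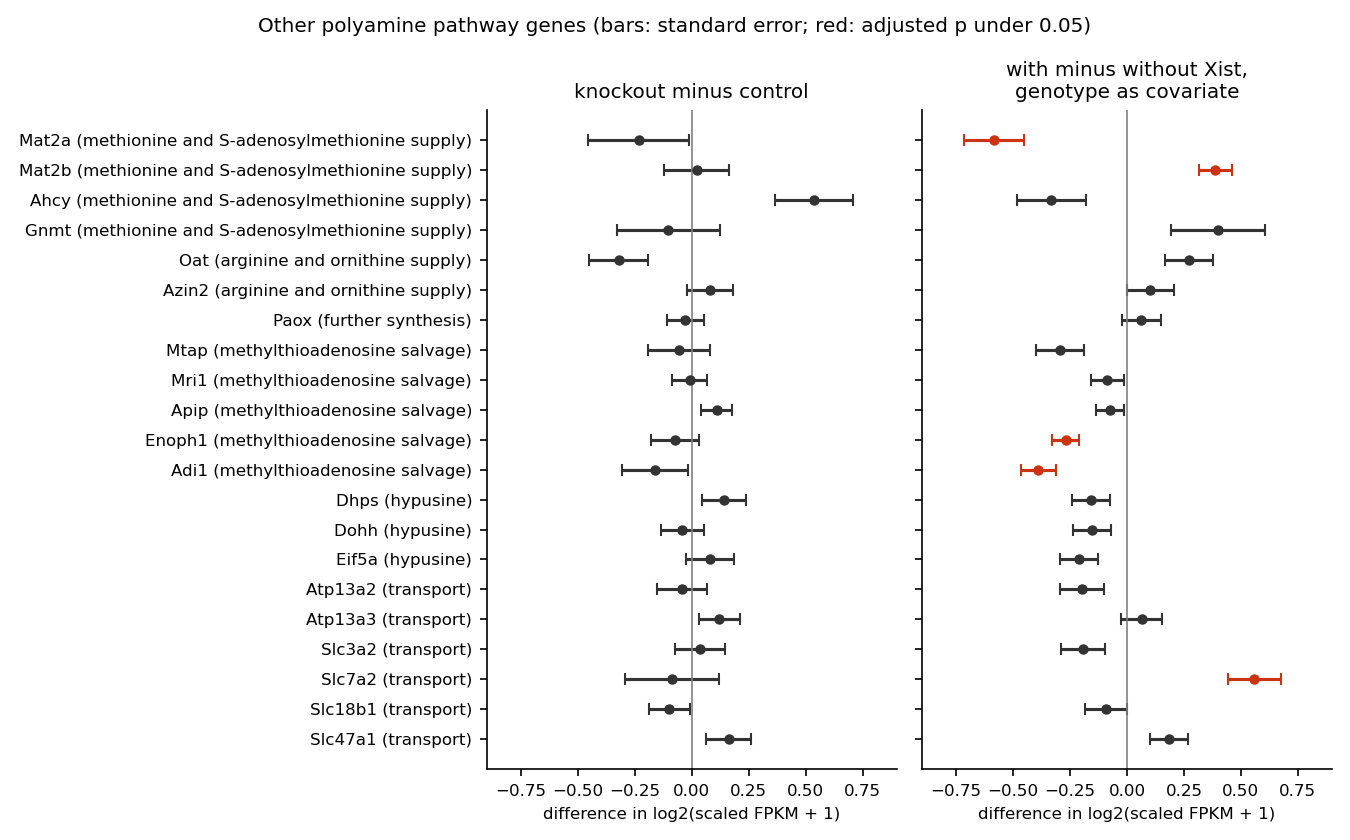
Fitted differences in log2(scaled FPKM + 1) with standard errors for the tested genes of the wider pathway other than Amd2, for knockout minus control (left) and libraries with minus without Xist (right). Red marks an adjusted p under 0.05 in limma: no gene on the left, and Mat2a, Mat2b, Enoph1, Adi1 and Slc7a2 on the right.

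Genes with the most similar pattern over the 8 libraries were named by the root mean square difference of centred log2 levels, among genes whose SD was at least 0.5 times theirs. For Sat2 these were Sema3b (0.115), Ccdc73 (0.132) and Isoc2b (0.133), while Sat2 itself has an SD of 0.44 on that scale. For Odc1, with an SD of 0.69, the nearest were Atp13a5 (0.311), Cacng7 (0.337) and Cdk19 (0.342).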

How the data were processed

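Total RNA of snap-frozen tibialis anterior was extracted with Trizol and made into TruSeq RNA libraries, per the labels' protocols. STAR and Cufflinks were used with mm10, per the submitters' processing notes; no version or annotation is given in the sources used here. All deposited values are FPKM, 1 table per library per the file headers, with no read counts. Cufflinks shares reads between overlapping or similar genes by estimation, and no strand setting is stated.

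Each library was divided by a median-of-ratios factor (0.904 to 1.07). Tests ran on log2 of that value with a pseudocount of 1, which understates changes of low genes. Left out were 23 genes whose status was not OK somewhere. A gene needed 1 scaled FPKM or more in 4 or more libraries, and the 11096 that had it were tested with limma 3.58.1 in R 4.3.3 (trended eBayes, Benjamini-Hochberg adjustment over all genes, threshold 0.05). The scripts were tested on simulated data. Python 3.11.15 was used for the rest.

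The 10 genes, the lists and the split by Xist were chosen with earlier results of these data known. Named were all 10 genes, the wider pathway genes called or with the smallest p, and the 3 genes nearest in pattern to Sat2 and Odc1. Alternatives were the pseudocount, filter, scaling, quantile normalization, robust eBayes, each library left out, the replicate number as a block, Xist as a covariate and the libraries without Xist. Added after the data were seen were the sum of Amd1 and Amd2, the interaction, and leaving out knockouts 2 and 4 together. Replicates are separate animals, per the labels.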

Additional observations from a re-analysis of the deposited data

Results flagged for a closer look

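Oaz1 in control 1 stood apart from the other 3 controls: it held 73.5 scaled FPKM and the nearest control held 104. Control 1 is the control with Xist. The Amd1 row, read alone, stood apart in knockout 1, at 2.62 scaled FPKM where the nearest of the other 3 knockouts held 0.0104; the same library held 21.1 in the row Amd2. Of 24 groups of 4 looked at, these 2 held a sample this far from the others. Chance gives about 1 in 20 for normally spread values. That rate does not apply to the Amd1 row, which was at 0.0104 or less in the other 3 knockouts.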

How the results depend on the processing

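Between genotypes limma called 40 genes. It called 8 with no filter, 15 when a mean of 5 scaled FPKM was the filter, 3 in the libraries without Xist alone, 13 without knockouts 2 and 4, 223 with Xist as a covariate, and between 2 (without control 4) and 27 (without knockout 3) with any 1 library left out. By presence of Xist it called 1381, against 721 with no filter and between 84 (without control 1) and 2070 (without control 4) with 1 library left out. With the replicate number as a block the counts were 0 (1314 at an unadjusted p under 0.05) and 426. Same-numbered libraries deviated together with correlations of -0.43, -0.19, 0.35 and 0.19, and controls 3 and 4, but not 1 and 2, matched their own number best. In numbers 1, 2 and 4 the control and the knockout differ in Xist, so these correlations cannot tell whether the number pairs the libraries. In the blocked fit the differences of Sms and Oaz1 by Xist had limma adjusted p-values of 0.0827 and 0.057. The Carm1 difference lay between -1.02 and -0.84 with 1 library left out, each with an exact permutation p of 0.0571, the smallest that 4 against 3 gives here. The causes of these shifts were not tested.

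Small differences changed sign, and the cause was not tested. Between genotypes, leaving out 1 library gave -0.13 to 0.15 for Sat1 and -0.0079 to 0.12 for Azin1. In the libraries without Xist alone Sat1 stood at -0.15 and Azin1 at -0.078. Without knockouts 2 and 4 together Sat1 stood at -0.014, Azin1 at -0.072 and Oaz1 at 0.067. By Xist, leaving out 1 library gave -0.63 to 0.19 for Odc1, -0.13 to 0.083 for Srm, -0.33 to 0.038 for Sat1 and -0.27 to 0.012 for Sat2, and without scaling Srm stood at 0.033. Smox, Odc1 and the sum of Amd1 and Amd2 stayed lower in the knockout, and Sat2 and Oaz2 higher, under every alternative run. FPKM tables hold no read counts, so counting error cannot be separated from other spread.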

Other observations

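Oaz3, an antizyme gene known from the testis and too low here for the main test, was singled out after its values were seen. It lay between 0.105 and 0.293 FPKM in the controls and between 0.577 and 0.969 FPKM in the knockouts. These ranges did not overlap, as was so for 8.31% of the genes in the main test. Fitted without the filter on low values, the log2 difference of Oaz3 was 0.55 (SE 0.09, limma adjusted p = 0.0914), which did not pass.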
